A study of Mus musculus with 6 samples.

Results

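The Ras-MAPK pathway of positive selection was followed in thymocytes that had lost Klf4, through 7 genes: the exchange factors Rasgrp1 and Sos1, the GTPase Nras, the kinase genes Braf, Map2k1, Map2k2 and Mapk3. Members were taken as every probe whose gene symbol in the platform annotation is one of these names. This gave 8 probes of 5 genes, among 25697 probes with 16593 gene symbols in all. Braf and Mapk3 were not analysed here. The rule names genes by their place in the pathway and uses no measured value, though the members were chosen with earlier results of these data known.

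The study compared 3 mice with a T-cell-directed Klf4 deletion (Klf4fl/fl-CD4-Cre+) and 3 controls without Cre (Klf4fl/fl-CD4-Cre-), all on a C57/BL6 background and 8 to 10 weeks of age. Both groups carried the floxed alleles, so the controls differ from the knockouts in the Cre transgene as well as in the deletion. Cre was driven from the Cd4 promoter, which becomes active at the double-positive (DP) stage. DP and CD4 single-positive (SP4) thymocytes were enriched together, untreated, and the RNA of each mouse was read on 1 single-colour Illumina MouseRef-8 v2 bead array.

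In a developing thymocyte, the T-cell receptor is tested against self peptides, and a weak signal rescues the cell while a strong one kills it. Receptor engagement produces diacylglycerol, which recruits the exchange factor RASGRP1, and assembles GRB2 with the exchange factor SOS1. Both load GTP onto Ras, which activates Raf kinases, then the kinases MEK1 and MEK2, then ERK. ERK activity drives early response genes of the EGR family and Id3, which are needed for positive selection. Most of this control acts on the proteins, by GTP loading and phosphorylation, which transcript levels do not read.

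Values are scores in z units, that is SDs of the probes of 1 array, after quantile normalization between arrays. No fold change is given, since the sources do not settle if a logarithm was taken before standardising. Arrays correlated pairwise at Pearson r of 0.992 to 0.996 across the tested probes, which are not independent replicates. T-lineage genes read high in all mice, with a list median of 3.59 to 3.77 z units in the controls and 3.62 to 3.70 in the knockouts. Medians of the B-cell list lay between -0.565 and -0.443, those of the erythroid list between -0.764 and -0.665. The B-cell genes were uneven, with Cd79b at percentile 81.1, Cd79a at 50.3, Ms4a1 at 49.2, Cd22 at 46.4 and Pax5 at 24.5. The macrophage and dendritic list read higher, with medians of 0.827 to 0.936 in the controls and 0.561 to 1.04 in the knockouts. Its genes were uneven: Lyz2, Cd74 and H2-Ab1 lay at percentiles 91.9, 93.5 and 91.3. The others read lay lower, C1qa at 68.3, Itgam at 27.1 and Itgax at 27.5. Medians of the DP list were 1.76 to 2.09 in the controls and 1.65 to 1.79 in the knockouts, with 6 of 7 differences below 0 and 0 called. Every knockout lay below every control for Rag1, Dntt and Themis, as on 7.45% of all tested probes. Those of the SP4 list were 0.267 to 0.291 in the controls and 0.097 to 0.289 in the knockouts. There 2 of 6 differences lay above 0 and 0 were called. The T-lineage gene Cd8a lay at the 9.97th percentile on its probe, while Cd8b1 lay at the 99.9th. Control 3 stood apart in sex-linked genes: Xist read 2.12 there and -0.558 to -0.404 in the other 5 mice, and the Y-linked gene Eif2s3y read -0.834 against 1.53 to 1.89. Member results that rest on control 3 are therefore given with and without it. In a bulk sample, fewer cells of a type and less RNA per cell cannot be told apart.

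The deletion was visible on 2 of 3 Klf4 probes. Probe ILMN_1241903 differed by -0.674 (SE 0.0679, limma adjusted p = 0.00265) and ILMN_1221264 by -0.376 (SE 0.052, limma adjusted p = 0.046), while ILMN_2999439 differed by 0.037 (limma adjusted p = 0.944). The second call was lost when any 1 mouse other than control 3 was left out, with limma adjusted p from 0.063 to 0.264. The position of each probe relative to the floxed segment is unknown, so it cannot be said which of the 3 probes check the deletion.

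Of the 7 member probes tested, 0 passed the test between the genotypes. A call here is an adjusted p under 0.05 over all 15418 tested probes, and 0.013% of the probes, both of them Klf4 probes, were called. Of the member probes 3 differences lay above 0 and 4 below, with a median of -0.0014, against a median of -0.00035 over all probes tested. At an unadjusted p under 0.05 there was 1 member probe, that of Map2k1. That count was 0 without knockout 1, knockout 2, control 1 or control 2, and 2 without control 3, when Rasgrp1 joined. The share of all tested probes is not given here for fits with a mouse left out, so those counts have no background beside them. In all 6 mice 8.82% of the tested probes passed, 4.07% higher and 4.75% lower in the knockout. The knockout and control values did not overlap on 1 of the 7, again Map2k1, where 14.1% of all tested probes did not overlap, 6.62% with the knockouts above and 7.45% with the knockouts below. Both shares are near those of the whole array. Over all 8 probes, the dim Sos1 probe included, the 95% intervals of the differences lay between -0.21 and 0.24 z units, with half-widths of 0.0979 to 0.181.

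**Figure D1:**
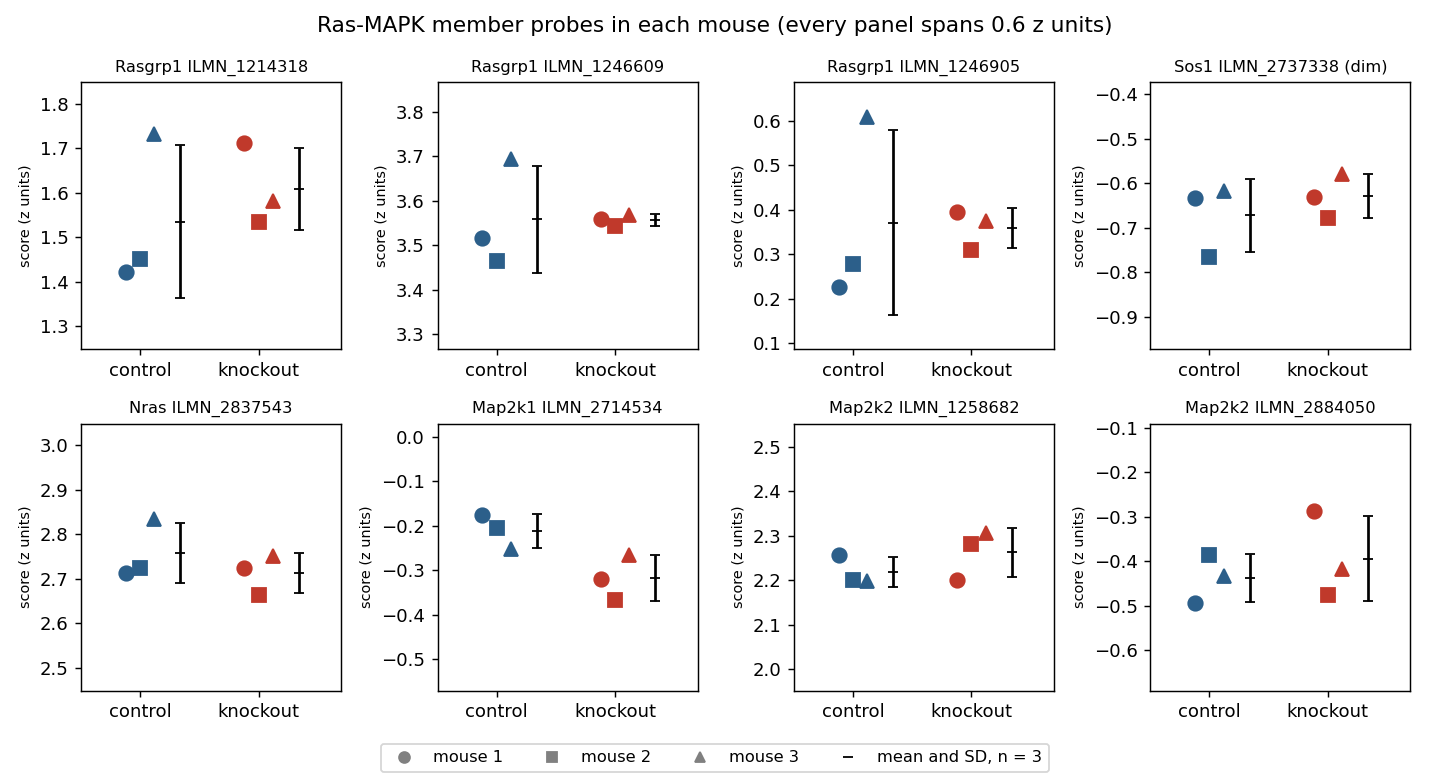
Score of each of the 8 member probes in z units for 3 control mice (blue) and 3 knockout mice (red), 1 symbol per mouse, with the mean and SD of each group in black (n = 3). Each panel spans the same width, and equal symbols mark equal mouse numbers, for which the labels state no pairing. Control 3 is the highest mouse on all 3 Rasgrp1 probes and on Nras, and the Map2k1 panel is the one where the groups do not overlap.

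Promoter sequences of Rasgrp1 and Map2k1 are shown because Klf4 encodes a zinc-finger factor of a family that binds CACCC and GC-rich elements. These genes held the single probes with the most positive and the most negative member difference, a choice made after their values were seen. For Rasgrp1 this rests on ILMN_1214318 alone, and its other probes differed by -0.0014 and -0.0114. Each line gives the 250 bases before the start of the gene in RefSeq's annotation of mouse build GRCm38.p6, read 5′ to 3′ on the gene's strand, with CACCC and its reverse complement GGGTG in capitals. The Rasgrp1 region is chr2:117342878-117343127 on the minus strand and the Map2k1 region chr9:64253606-64253855 on the minus strand.
Rasgrp1: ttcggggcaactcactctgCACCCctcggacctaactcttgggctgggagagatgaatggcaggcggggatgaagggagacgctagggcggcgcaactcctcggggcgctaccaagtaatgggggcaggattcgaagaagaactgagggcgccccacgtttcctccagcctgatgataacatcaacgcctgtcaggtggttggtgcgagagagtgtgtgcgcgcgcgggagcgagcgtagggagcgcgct
Map2k1: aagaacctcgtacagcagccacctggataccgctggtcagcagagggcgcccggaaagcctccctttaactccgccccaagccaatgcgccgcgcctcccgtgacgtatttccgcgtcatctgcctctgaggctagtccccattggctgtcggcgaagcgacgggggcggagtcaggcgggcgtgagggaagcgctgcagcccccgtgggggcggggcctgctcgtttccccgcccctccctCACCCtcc
Each holds 1 match to CACCC on either strand. Sos1 holds 2, Nras 1, Map2k2 1 and Braf 4 in the same window. Of 32851 promoter entries of this length 52.0% held at least 1 match. The GC-box letters CGCCC, with reverse complement GGGCG, matched 7 times in Map2k1 and 4 times in Rasgrp1. They matched 3 times in Nras and 1 time each in Sos1, Map2k2 and Braf. Of the entries, 43.7% held at least 1 and 17.9% held 3 or more. Matches of the motifs may share bases but cannot start at the same base. A match describes these letters and is no measured binding site.

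Rasgrp1 encodes the diacylglycerol-responsive exchange factor that is the main route to Ras in thymocytes, and it was read by 3 probes. On ILMN_1214318 the controls read 1.42, 1.45 and 1.73 z units and the knockouts 1.71, 1.53 and 1.58. Control 3 was the highest of the 6 mice and the other controls were the lowest, so the groups overlapped through 1 mouse. Control mice averaged 1.54 ± 0.172 and knockout mice 1.61 ± 0.0916 (SD, n = 3 per genotype). They differed by 0.0736 (SE 0.0771, limma adjusted p = 0.823). On ILMN_1246905 the controls read 0.227, 0.278 and 0.609 and the knockouts 0.396, 0.31 and 0.374, with the same arrangement of the mice. Its difference was -0.0114 (SE 0.0841, limma adjusted p = 0.982), and control 3 gave this probe the widest control range of the 8, 0.382.

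The third Rasgrp1 probe, ILMN_1246609, lay at percentile 99.5 of the arrays. The controls read 3.52, 3.47 and 3.69 and the knockouts 3.56, 3.54 and 3.57, a difference of -0.0014 (SE 0.0523, limma adjusted p = 0.997). The knockouts were close together here and sat between control 3 and the other controls. In the deposited scores, before quantile normalization, the same probe read 3.524, 3.501 and 3.525 in controls and 3.597, 3.621 and 3.534 in knockouts. All knockouts then lay above all controls, as 5.59% of the tested probes did in those scores, with a difference of 0.067 (limma adjusted p = 0.819). The highest score of control 3 was 4.52 before normalization against 4.77 to 5.02 in the other mice, and normalization moved this probe in control 3 from 3.525 to 3.69.

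Without control 3, all 3 Rasgrp1 probes read higher in every knockout than in either remaining control. The differences were 0.175, 0.069 and 0.108 on ILMN_1214318, ILMN_1246609 and ILMN_1246905, with limma adjusted p of 0.485, 0.626 and 0.619. In the same order, they were 0.015, -0.02 and -0.084 without control 1, and 0.032, -0.05 and -0.059 without control 2. With these 5 mice 12.8% of all tested probes had all knockouts above all controls. The 3 probes read the same RNA of the same mice and are not independent evidence. Besides Rasgrp1, control 3 had the highest T-lineage median, 3.77, where the other mice had 3.59 to 3.70. Its DP median was also the highest, 2.09, where the other controls had 1.92 and 1.76 and the knockouts 1.65 to 1.79. The part of cell makeup, sex or array in the Rasgrp1 values was not tested.

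Sos1 encodes the exchange factor that GRB2 brings to the membrane, and its single probe was dim. Its mean lay under the 40th percentile of all probes, so it was taken from a fit on all probes and not counted among those tested. The controls read -0.634, -0.767 and -0.616 and the knockouts -0.63, -0.679 and -0.58. The groups overlapped, and control 2 was the lowest mouse. The difference was 0.0427 (SE 0.0463, limma adjusted p = 0.887), and without control 2 it was -0.004.

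Nras, one of the Ras GTPases that both exchange factors load, read 2.71, 2.73 and 2.83 in the controls and 2.73, 2.66 and 2.75 in the knockouts. Control 3 was again the highest mouse. Control mice averaged 2.76 ± 0.0672 and knockout mice 2.71 ± 0.0457 (SD, n = 3 per genotype). They differed by -0.0441 (SE 0.0477, limma adjusted p = 0.83). Without control 3 the difference was -0.005, and in the deposited scores -0.026.

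Map2k1 encodes MEK1, the kinase that phosphorylates ERK, and its probe had the largest difference in size among the members. The controls read -0.176, -0.205 and -0.252 z units and the knockouts -0.319, -0.368 and -0.266. Every knockout lay below every control, by a gap of less than the range within either group, since control 3 at -0.252 and knockout 3 at -0.266 were neighbours. Control mice averaged -0.211 ± 0.0383 and knockout mice -0.318 ± 0.051 (SD, n = 3 per genotype). In percentiles of an array, the averages were 61.9 and 58.8. The difference was -0.107 (SE 0.0478, 95% interval -0.21 to -0.0035), with an unadjusted p of 0.0437 and a limma adjusted p = 0.554, and 7.87% of all tested probes had a smaller p. It lay between -0.132 and -0.082 when single mice were left out, and was -0.118 in the deposited scores.

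Map2k2 encodes MEK2, which shares ERK as its substrate, and it was read by 2 probes. On ILMN_1258682 the controls read 2.26, 2.20 and 2.20 and the knockouts 2.20, 2.28 and 2.31. On ILMN_2884050 the controls read -0.493, -0.386 and -0.433 and the knockouts -0.288, -0.475 and -0.418. The groups overlapped on both probes, and knockout 1 was among the lowest mice on the first and the highest on the second. The differences were 0.0445 (SE 0.0473, limma adjusted p = 0.825) and 0.0437 (SE 0.0529, limma adjusted p = 0.849). On the second probe the difference was -0.009 without knockout 1. Whether the MEK1 and MEK2 genes differed from each other in their response was not tested.

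**Figure D2:**
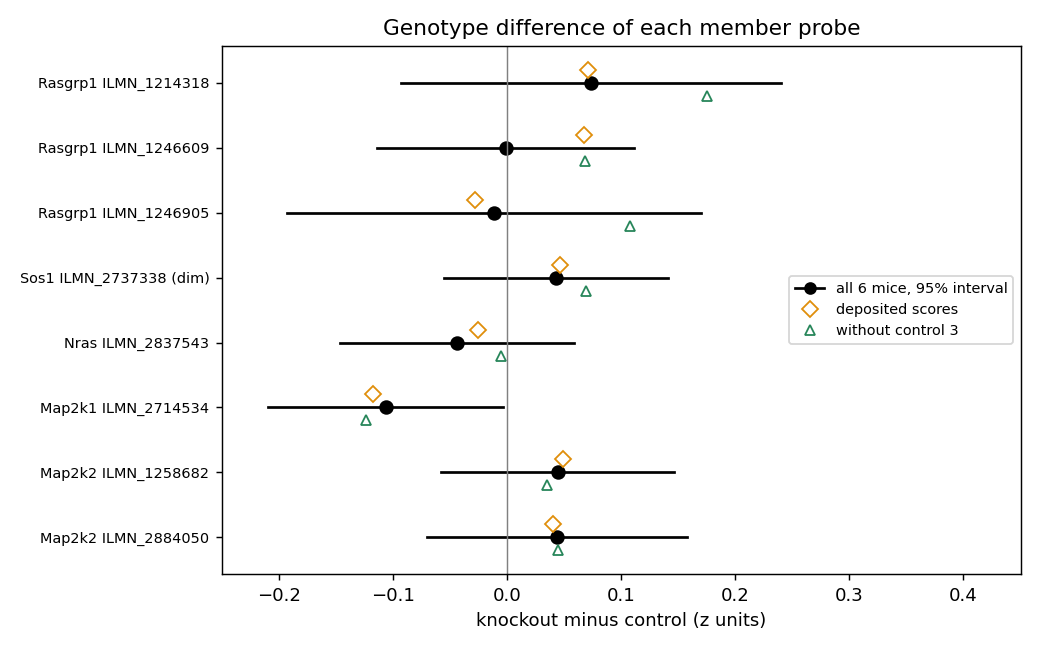
Difference knockout minus control in z units for each member probe (black dot) with its 95% interval (black line), beside the difference in the deposited scores (orange diamond) and without control 3 (green triangle). The Map2k1 interval, -0.21 to -0.0035, is the one that lies wholly below 0 before adjustment, and the Rasgrp1 triangles lie to the right of their dots.

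The rest of the pathway was followed through 73 other genes, of which 59 were read and 50 passed the filter, with the brightest probe taken for each. By limma 0 were called. Of the 50 differences 15 lay above 0 and 35 below, with a median of -0.023 z units, where 51.9% of all 10399 tested genes lay below 0 with a median of -0.0025. Control 3 bore on that count: without it 29 of 50 lay below 0, as also without knockout 1. The choice of the brightest probe bore on the median. With all tested probes of these genes it was -0.012, against -0.00035 over all probes tested. At an unadjusted p under 0.05 there were 5 genes, 10% of the list, against 8.85% of all tested genes. The groups did not overlap in 12% of the list, against 14.2% of all tested genes. Both of these shares are near the background. Of the DP genes, 6 of 7 differences also lay below 0: Themis, needed for positive selection, differed by -0.239 and Dntt by -0.137 (limma adjusted p = 0.397 and 0.415), and their part in the pathway values was not tested. Single mice weighed on these values: of 26 named pathway genes, 25 turned sign or moved by over 1.5 times when some mouse was left out, and Rras2 did not. The share of all tested genes that do so is not given here, and a difference near 0 meets this rule easily. Rras2 was named for its smallest p, so its standing as the exception is not independent of that choice.

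Upstream of Ras, 9 adaptor and phospholipase genes had a median difference of -0.012 and a range of -0.116 to 0.115. Lat, the membrane scaffold on which the signal is assembled, differed by -0.016, Plcg1, which makes diacylglycerol, by -0.054, and Grb2, the adaptor of SOS1, by 0.024. The smallest p in this role was that of Lcp2, the SLP-76 adaptor gene, at -0.116 (limma adjusted p = 0.616), with -0.127 on its second probe. Without control 3 its first probe differed by -0.073 and without knockout 1 by -0.067. Among the other exchange factors Rasgrp2 differed by -0.04 (limma adjusted p = 0.905), by -0.128 without knockout 1 and by 0.018 without knockout 2, and the dim probe of Rasgrp3 by -0.017.

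Among the other Ras GTPases, Rras2, which encodes the R-Ras-related protein TC21, had the smallest p of the list. The controls read 0.304, 0.332 and 0.269 z units and the knockouts 0.0382, 0.0075 and 0.141. Every knockout lay below every control. Control mice averaged 0.302 ± 0.0318 and knockout mice 0.0622 ± 0.0698 (SD, n = 3 per genotype). The difference of -0.24 (SE 0.0552, limma adjusted p = 0.312) did not pass. When single mice were left out it lay between -0.28 and -0.213, with limma adjusted p from 0.135 to 0.75. Rras differed by -0.027.

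Of 6 Raf kinase and scaffold genes 5 lay below 0, with a median of -0.066. Araf, the Raf kinase measured here, differed by -0.0025 (limma adjusted p = 0.994), with 0.064 on its second probe. Iqgap1, a scaffold that binds MEK and ERK, differed by 0.184 (SE 0.0658, limma adjusted p = 0.46). Its knockouts read 2.92, 2.93 and 2.93 and its controls 2.92, 2.59 and 2.71, so control 1 lay level with the knockouts. The difference was 0.275 without control 1 and 0.109 without control 2. The dim probe of the scaffold gene Ksr1 differed by 0.071.

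Of 16 negative regulators 6 lay above 0 and 10 below, with a median of -0.035. The smallest p was that of Rasa2, a Ras GTPase-activating protein, at -0.171 (SE 0.0724, limma adjusted p = 0.519), and at -0.088 without control 3. Rasa1, a related gene, differed by -0.063, and the dim probe of Nf1, the neurofibromin gene, by -0.032. The diacylglycerol kinase genes Dgka and Dgkz, whose products remove the lipid that recruits RASGRP1, differed by -0.089 and 0.048 on their brightest probes. Without control 3 these were -0.047 and 0.1. In all 6 mice the other tested probes differed by -0.015 and -0.00066 for Dgka and by 0.023 and 0.028 for Dgkz. Spred1 differed by -0.129, and by -0.081 without control 3. Spry1 differed by -0.022 and the ERK phosphatase gene Dusp6 by -0.064, or -0.038 without knockout 1.

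Of 15 ERK substrate and target genes 12 lay below 0, with a median of -0.024. That count rests on the brightest probe of each gene. The other tested probes in this role, of Elk3, Elk4, Ets1 and Srf, all lay above 0. Ets1 differed by 0.012 on its brightest probe and by 0.132 and 0.1 on the others (limma adjusted p = 0.5 and 0.622). The early response gene Egr1 differed by 0.01 (limma adjusted p = 0.976), Egr2 by -0.128 (limma adjusted p = 0.566) and Egr3 by -0.024. All knockouts lay below all controls for Egr2, at 0.408, 0.597 and 0.529 against 0.629, 0.677 and 0.613, and the difference was -0.077 without knockout 1. Id3, an inhibitor of E proteins, differed by -0.18 (limma adjusted p = 0.533) and Ier2 by -0.167 (limma adjusted p = 0.482). The Id3 difference ranged from -0.264 without control 3 to -0.111 without control 1, and that of Ier2 was -0.107 without control 3 and -0.111 without knockout 3. Srf, the partner of the ternary complex factors, differed by -0.032, with 0.112 on its second probe, and Elk4, one of those factors, by 0.071. Several of these genes also respond to tissue dissociation. In a list of 10 dissociation and immediate early genes, 9 of them read, the list median was 1.17 to 1.52 in controls and 0.998 to 1.39 in knockouts, with 1 of 9 differences above 0 and 0 called. Fos, Egr1 and Ier2 are on both lists, and the part of handling in the target genes' values was not tested.

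**Figure D3:**
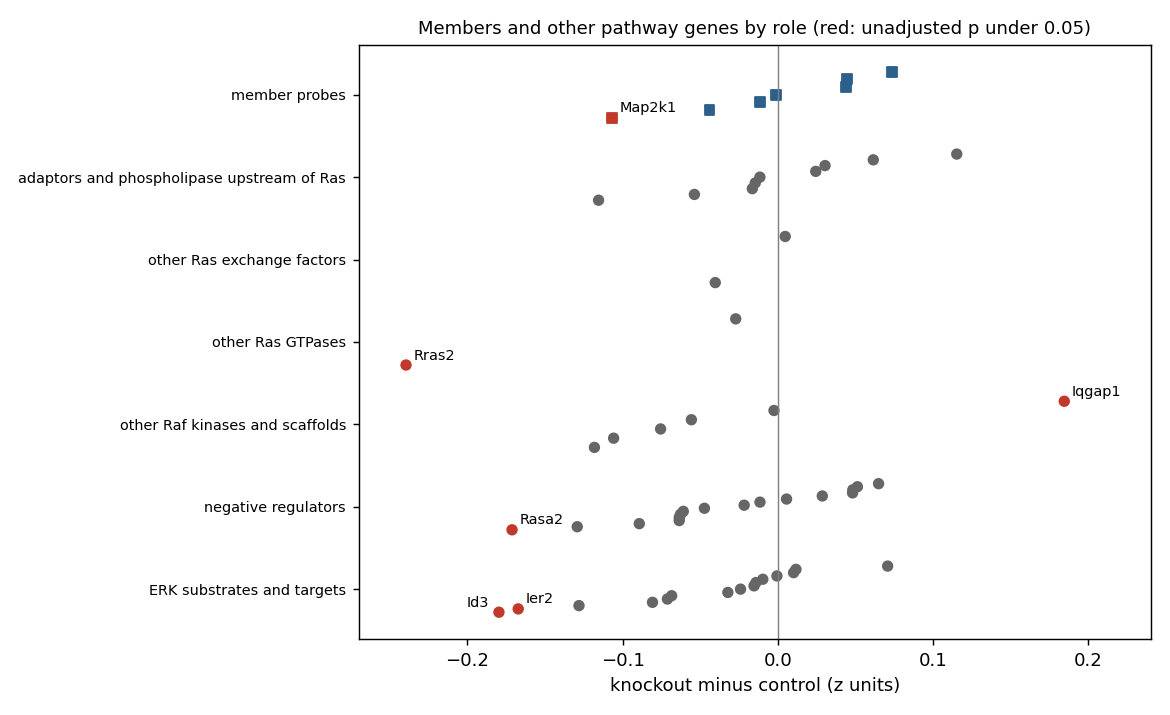
Difference knockout minus control in z units for the 7 tested member probes (squares) and the 50 tested other pathway genes (circles, 1 probe each), grouped by role and spread vertically for legibility. Red marks an unadjusted p under 0.05: Map2k1, Rras2, Iqgap1, Rasa2, Id3 and Ier2, none of which passed after adjustment.

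**Figure D4:**
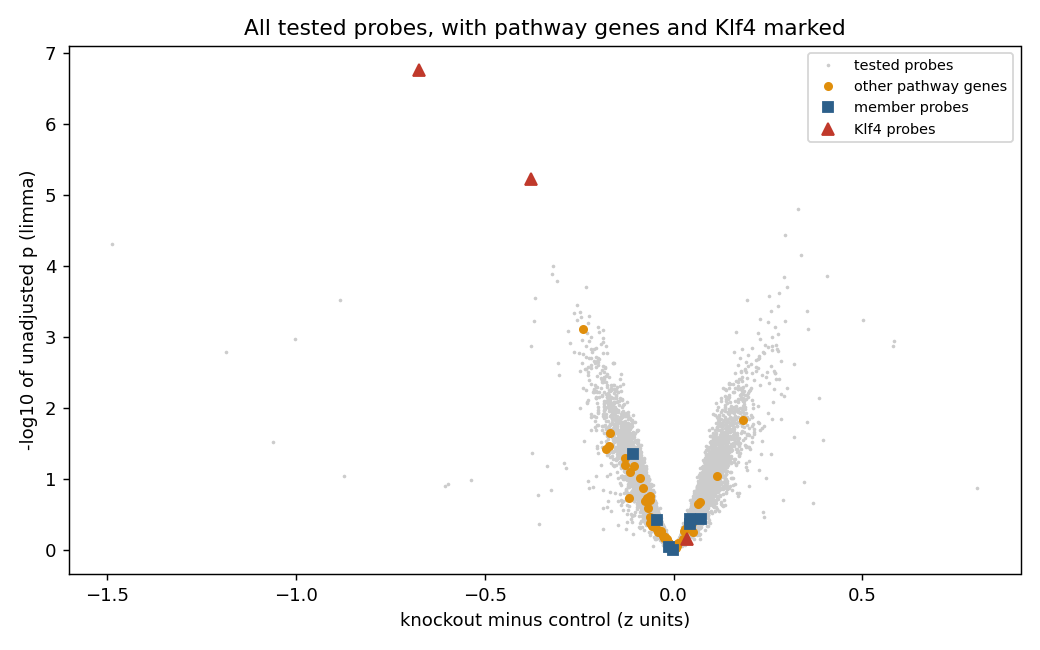
Difference knockout minus control in z units against -log10 of the unadjusted limma p for all 15418 tested probes (grey), with member probes (blue squares), other pathway genes (orange circles) and Klf4 probes (red triangles). Both called probes belong to Klf4, and every member probe lies inside the cloud of the other probes.

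For the brightest probe of each member, the genes with the most similar profile over the 6 arrays were those with the smallest mean absolute difference after centring each probe on its own mean. For Rasgrp1 they were Tyk2, at 0.0054 z units, and Manba, for Nras Rapsn and Slc4a2, for Map2k1 Rtn4ip1 and Med20, for Map2k2 AI837181 and Ttc39c, and for the dim Sos1 probe Taf9b and Ggcx. These are the closest of 15418 probes over 6 points and describe the arrays only.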

How the data were processed

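The authors deposited scores: the 25697 probes of every array have mean 0 and SD 1, as the values show. The submitters' processing notes list GenomeStudio 2010.1 without saying what it did. Background correction, any logarithm and detection p-values: not given in the sources used here. Column medians of the deposited scores were -0.493, -0.489 and -0.49 in knockouts 1 to 3 and -0.488, -0.491 and -0.487 in controls 1 to 3. The table held 0 columns of other samples. Probes were named from the platform annotation in GEO, and symbols were brought up to date by gene identifier with RefSeq (GRCm38.p6). 23978 probes had 1 symbol, 0 several and 1719 none.

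Scores were quantile-normalized between arrays. Dim probes, with a mean over all 6 mice below the 40th percentile, were dropped, which kept 15418. Genotypes were compared in a two-sided test by lmFit and eBayes with a trend (limma 3.58.1, R 4.3.3) and Benjamini-Hochberg adjustment over those probes at 0.05. The fit was run on simulated data with independent noise for each probe. Its power for differences as small as those of the members is not given here. The replicates are separate mice, and 3 arrays per group limit the precision. Every member probe, Klf4, the paralogs and pathway neighbours of the members, and the gene with the smallest p in each role were to be named. The named neighbours without a value here were not analysed. Members, lists, tests and alternatives were chosen with earlier results of these data known.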

Additional observations from a re-analysis of the deposited data

How the results depend on the processing

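Across 15 alternatives, covering normalization, filter, variance model, array weights, pairing, scale and each mouse left out, 0 member probes and 0 other pathway genes were called. The number of called probes over the whole array was 2 as reported. It was 0 with the filter at the 60th percentile, which removes both called Klf4 probes, 0 on the percentile scale and 1 without a trend in the variance. It ranged from 1 to 4 with 1 mouse left out. The median difference of the member probes changed sign and stayed near 0, from -0.05 without control 2 to 0.045 without control 3, and was 0.04 in the deposited scores and 0.042 with median centring. That of the other pathway genes stayed below 0 in each alternative, from -0.039 to -0.011 in z units. The Map2k1 difference kept its sign in all 15, with limma adjusted p from 0.371 to 0.827. The signs of Rasgrp1 probes ILMN_1246609 and ILMN_1246905, of Sos1 and of Map2k2 probe ILMN_2884050 turned in at least 1.

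The labels state no pairing of same-numbered mice. Their deviations from the group means correlated at -0.034, 0.167 and 0.035 for numbers 1 to 3. Those of differently numbered mice correlated at -0.172 to 0.11. So few correlations cannot settle whether the mice were paired. With the replicate number as a block, 4 probes were called, of Klf4, Bach1 and Fosb, and 0 member probes; Map2k1 then had a limma adjusted p = 0.521.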
